A study of Mus musculus with 2 samples.

Results

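The genes of the bone morphogenetic protein (BMP) and transforming growth factor-beta (TGF-beta) signalling pathways were followed in the E13.5 mouse cortex with and without the LSD1 co-repressor Rcor2. Members were taken by gene symbol, as every gene whose name marks it as a BMP, a growth differentiation factor (Gdf), an activin or inhibin beta chain, a TGF-beta, a receptor of these ligands, a Smad, an Id gene or an extracellular binding protein such as noggin, chordin, gremlin, follistatin and their relatives. This gave 63 of 21896 genes. Both libraries came from C57/BL6 embryos at E13.5, as the VZ–SVZ of the cortex, with 1 Rcor2fl/fl library as the control and 1 Rcor2cko library. Both genotypes carry floxed Rcor2 alleles, and Rcor2cko also carries NesCre, a Cre recombinase driven by the Nestin promoter, which acts in neural progenitors throughout the nervous system rather than in the cortex alone. The parents were themselves Rcor2fl/+NesCre, and the labels do not say how many embryos each library holds.

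Ligands of this superfamily bring together type II and type I receptor kinases, and the type I receptor then phosphorylates receptor-regulated Smads. In the classical scheme, BMP receptors act through Smad1, Smad5 and Smad9, while TGF-beta and activin receptors act through Smad2 and Smad3, and both branches share Smad4. In the embryonic telencephalon, BMPs are known as signals of the dorsal midline, the cortical hem and the choroid plexus, and the Id genes are textbook direct targets of BMP-activated Smads.

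Values are FPKM, fragment counts scaled by transcript length and library size, which allow levels to be compared between genes. Changes compare (FPKM + 0.1) between Rcor2cko and Rcor2fl/fl as a log2 ratio, a scale that understates the change of genes with low levels. A gene was counted as changed where it was past 1.5-fold and reached at least 1 FPKM in at least 1 library. The FPKM steps correspond to scaling totals of 18841684 and 25479853 fragments in the Rcor2fl/fl and Rcor2cko library, and fragments could be recovered for 54 members. For these, 95% exact (Clopper-Pearson) intervals of the log2 fragment ratio and a two-sided exact binomial test, with Benjamini-Hochberg adjustment over 12093 genes, compare the 2 libraries, for counting error alone. The intervals surround the fragment ratio, which differs from the change on (FPKM + 0.1) by at most 0.028 for the 27 members with at least 1 FPKM and recovered fragments, and by more for genes with low levels. Each genotype is 1 library, so no difference has a replicate check.

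Rcor2 itself went from 90.6 to 55.7 FPKM (3108 and 2571 fragments), a log2 difference of -0.70 (interval -0.78 to -0.63). The LoxP sites flank the first exons of the gene, whereas the FPKM value covers the whole transcript. The paper reports no RNA from the exons between these sites in Rcor2cko at E13.5, and loss of the protein by western blot. Listed cortical markers (Emx1, Emx2, Eomes, Lhx2, Neurod1, Neurod2 and Tbr1) were present in both libraries, at a summed 543 and 459 FPKM. Of the 7, 6 were lower in Rcor2cko and 1, Tbr1, was higher, and only Emx2 was past 1.5-fold, downwards. Xist was at 177 FPKM in Rcor2fl/fl and 0.109 FPKM in Rcor2cko, and 4 Y-linked genes were at most 0.0239 FPKM in the former and at least 3.38 FPKM in the latter, so that embryo sex and genotype cannot be told apart.

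Of the 63 members, 33 reached 1 FPKM in at least 1 library. Among them Bmpr1b and Fst were past 1.5-fold upwards and Tgfb2 was past it downwards. The other 30 were not past 1.5-fold, and 23 of the 33 differed by less than 1.2-fold. Across all 11777 genes that passed the same filter, 3.79% were past 1.5-fold upwards and 1.76% downwards (5.54% either way), against 2 and 1 of 33 members. With the added condition that the deposited 95% FPKM intervals were apart, 1 member was past it upwards and 0 downwards, against 1.87% and 0.688% of all genes. The median log2 change was 0.05 over the 33 members and -0.03 over all genes compared. In the fragment test, 9 of 27 members with at least 1 FPKM and recovered fragments were higher and 3 were lower in Rcor2cko at an adjusted p under 0.05. Of all 8460 genes that met the same conditions, 10.4% were higher and 16.4% lower. The fragment test was not repeated under other scalings of the libraries. Without the filter on level, 11 of 47 members were higher and 3 lower, against 8.53% and 11.9% of the 12093 genes. Bmpr1b, Fst and Tgfb2 passed both this test and the fold of 1.5, as did 3.11% of genes upwards and 1.37% downwards. The other 30 members stayed under 1 FPKM in both libraries.

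**Figure D1:**
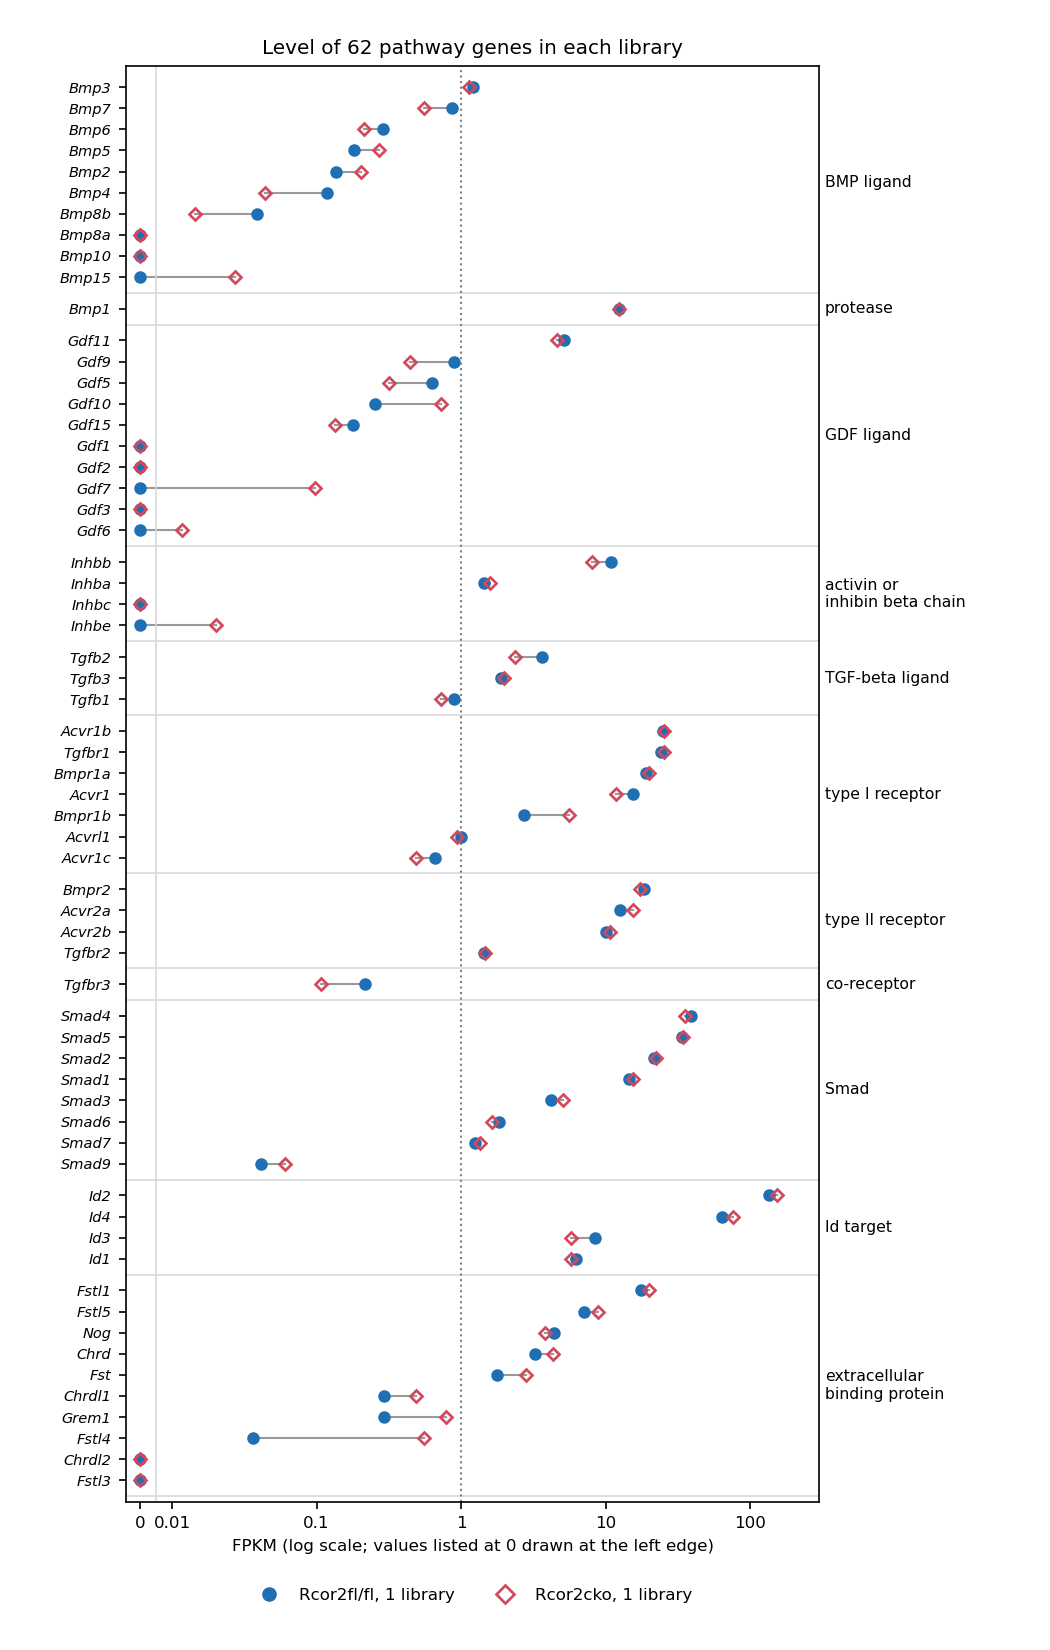
Level of 62 of the 63 members in FPKM on a log axis, grouped by role, with the Rcor2fl/fl library as filled circles, the Rcor2cko library as open diamonds, values listed at 0 at the left edge and a dotted line at 1 FPKM. All Smads but Smad9, the Id genes and most receptors lie right of the line in both libraries, while 9 of 10 BMP ligands and 9 of 10 Gdf genes lie left of it.

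The BMP ligands were low in this tissue, with 9 of the 10 under 1 FPKM in both libraries. Bmp3, an atypical BMP that counteracts BMP signalling, was the other, at 1.22 FPKM in Rcor2fl/fl and 1.13 FPKM in Rcor2cko (67 and 84 fragments). Its log2 change of -0.10 had an interval from -0.59 to 0.38. Bmp7 was at 0.869 and 0.556 FPKM from 29 and 25 fragments, a log2 fragment ratio of -0.64 (interval -1.48 to 0.18). Bmp4, a signal of the dorsal midline, was at 0.118 and 0.0438 FPKM, from 4 and 2 fragments, and no difference was detectable at this depth (interval -4.90 to 1.37). Bmp2, Bmp5 and Bmp6 lay between 0.137 and 0.287 FPKM across both libraries. Of the exonic bases of Bmp5, 46.7% also lie in Gm16662 on the opposite strand. Bmp6 shares 6.58% of its exonic bases with Txndc5, also on the opposite strand, which was at 14.1 FPKM in Rcor2fl/fl and 13.2 FPKM in Rcor2cko. The 10 BMP ligands summed to 2.85 and 2.46 FPKM.

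Among the Gdf genes, Gdf11, a relative of myostatin, stood apart in level. It was at 5.19 FPKM in Rcor2fl/fl and 4.58 FPKM in Rcor2cko (158 and 188 fragments), a log2 difference of -0.17 (interval -0.49 to 0.14). The other 9 Gdf genes stayed under 1 FPKM. Gdf10, a ligand related in sequence to Bmp3, was at 0.252 FPKM in Rcor2fl/fl and 0.731 FPKM in Rcor2cko. Its 11 and 43 fragments gave a log2 fragment ratio of 1.54 (interval 0.56 to 2.64, exact binomial test with Benjamini-Hochberg adjustment, adjusted p = 0.00621). Gdf9, best known as an oocyte factor, was at 0.890 and 0.441 FPKM (27 and 18 fragments), and Gdf5, a factor of joint formation, at 0.626 and 0.316 FPKM (25 and 17 fragments). Both were lower in Rcor2cko, by log2 changes of -0.87 and -0.80, with exact adjusted p = 0.0941 and 0.113 by the Benjamini-Hochberg method. Of the exonic bases of Gdf5, 40.3% also lie in an annotated gene on the opposite strand, Gm15557.

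Of the activin chains, Inhbb, which makes the beta-B chain of activins and inhibins, was the most abundant ligand gene of the set. It was at 10.9 FPKM in Rcor2fl/fl and 8.02 FPKM in Rcor2cko, from 836 and 828 fragments. The difference was short of 1.5-fold (log2 change -0.44, interval -0.59 to -0.31) and past the fragment test (exact binomial, Benjamini-Hochberg adjusted p = 8.01e-09). Inhbb made up 38.0% of the summed FPKM of all 27 ligand genes in Rcor2fl/fl and 34.2% in Rcor2cko. Inhba, the beta-A chain, was at 1.43 and 1.60 FPKM with an interval of the log2 ratio from -0.48 to 0.81.

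Tgfb2 was the one ligand past 1.5-fold among the 6 that reached 1 FPKM. This TGF-beta is encoded at bases 188447065 to 188529871 of chromosome 1 in mm9, minus strand, with at most 8 exons in any annotated transcript. It fell from 3.62 to 2.37 FPKM (309 and 273 fragments), 1.51-fold lower in Rcor2cko, a log2 difference of -0.59 (interval -0.85 to -0.37). The exact binomial test gave a Benjamini-Hochberg adjusted p = 6.34e-06, while the FPKM intervals deposited with the values overlapped. The value lies just past the threshold of 0.585, and with median scaling it was -0.56, short of it. In Rcor2fl/fl the 3 TGF-beta genes were ordered Tgfb2, Tgfb3, Tgfb1 with no overlap between neighbouring intervals, whereas in Rcor2cko the intervals of Tgfb2 and Tgfb3 overlapped. Tgfb3 was at 1.90 and 1.97 FPKM (interval of the log2 ratio -0.30 to 0.42), and Tgfb1 at 0.894 and 0.726 FPKM (interval -1.03 to 0.44).

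The 250 bases upstream of the Tgfb2 start (chr1:188529869-188530118, minus strand, NCBIM37, the assembly that mm9 names) are shown because Tgfb2 is a ligand whose level differed. The sequence is from the RefSeq promoter table and was placed on NCBIM37 by an exact match. Capitals mark CAGAC or its reverse complement GTCTG, a short element bound by Smad proteins, which 42.2% of 32851 mouse promoters of this length hold on either strand, and GGCGCC, a GC-rich Smad element that is its own reverse complement, which 9.59% hold. A match describes the letters of this window only.
Tgfb2: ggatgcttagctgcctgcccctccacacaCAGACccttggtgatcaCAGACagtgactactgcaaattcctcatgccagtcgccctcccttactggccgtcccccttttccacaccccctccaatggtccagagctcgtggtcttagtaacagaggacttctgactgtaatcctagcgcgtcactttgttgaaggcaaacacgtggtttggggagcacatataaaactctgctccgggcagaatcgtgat

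Genes of the cortical hem and of Cajal-Retzius cells, early neurons at the cortical surface, moved in the same direction as Tgfb2. All 14 listed markers were lower in Rcor2cko, 8 of the 9 that reached 1 FPKM were past 1.5-fold, and Wnt3a was listed at 0 there. Their summed level was 69.2 FPKM in Rcor2fl/fl and 30.7 FPKM in Rcor2cko. Their part in the values of Tgfb2, Bmp7, Gdf5, Gdf9 and Inhbb was not tested. In whole-tissue RNA fewer cells of a type and less RNA per cell cannot be told apart.

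The type I receptors held the largest change of any member that reached 1 FPKM. Bmpr1b, a BMP type I receptor kinase, rose from 2.72 FPKM in Rcor2fl/fl to 5.55 FPKM in Rcor2cko, from 264 and 726 fragments. This is a 2.0-fold rise on (FPKM + 0.1) and a log2 change of 1.0 (interval 0.82 to 1.23). The exact binomial test gave a Benjamini-Hochberg adjusted p = 3.64e-23, and the deposited FPKM intervals did not overlap. The increase was past 1.5-fold under every pseudocount, filter and scaling tried. The gene lies at bases 141500100 to 141832389 of chromosome 3 in mm9, minus strand, with at most 12 exons in any annotated transcript.

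Its paralogue Bmpr1a, which binds many of the same ligands, was at 19.1 and 20.01 FPKM (1901 and 2692 fragments), and its interval, -0.02 to 0.15, included 0. The ratio of Bmpr1a to Bmpr1b was therefore 7.003 in Rcor2fl/fl and 3.61 in Rcor2cko. Bmpr1b contributed 3.09% of the summed FPKM of the 7 type I receptors in the former and 6.19% in the latter. It was the fifth of the 7 in both libraries, below Acvr1 and above Acvrl1, and its interval overlapped neither neighbour.

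Bases upstream of the Bmpr1b start nearest to the transcript counted in the files are shown as for Tgfb2, with the same elements in capitals (chr3:141645229-141645478, minus strand, NCBIM37, 46.8% G or C). This window lies inside the annotated gene, whose outermost start on the minus strand is at base 141832389, so it belongs to an internal start. The median over all promoters of the table was 52.4%.
Bmpr1b: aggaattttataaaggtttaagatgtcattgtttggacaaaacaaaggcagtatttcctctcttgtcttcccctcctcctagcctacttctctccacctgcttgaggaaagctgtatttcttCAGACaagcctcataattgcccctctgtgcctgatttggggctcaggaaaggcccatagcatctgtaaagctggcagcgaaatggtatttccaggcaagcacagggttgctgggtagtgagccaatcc

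None of the other type I receptors was past 1.5-fold. Acvr1b, an activin receptor, was at 25.1 and 25.3 FPKM with an interval of the log2 ratio from -0.09 to 0.11. Tgfbr1, the TGF-beta type I receptor, was at 24.2 and 25.5 FPKM with an interval from 0.00 to 0.15. The 2 could not be told apart in level in either library, since their FPKM intervals overlapped. Acvr1, a BMP receptor with 3 transcripts in the Rcor2fl/fl values, was at 15.4 and 11.8 FPKM, or -0.38 as log2 change, and of its level in Rcor2fl/fl 64.6% came from 1 transcript of 2776 nt and 34.7% from another of 3053 nt. With the highest Rcor2fl/fl row in place of the sum it was 0.24, but Rcor2cko has 1 row per gene. That choice can only raise a log2 change or leave it as it was, so it does not test the direction. Acvrl1, known from endothelium, was at 1.01 and 0.940 FPKM (interval -0.58 to 0.40). Acvr1c stayed under 1 FPKM, at 0.661 and 0.489 FPKM.

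None of the 4 type II receptors was past 1.5-fold. Bmpr2, the BMP type II receptor, was at 18.3 and 17.2 FPKM (interval -0.21 to 0.02) and was the most abundant of them. Acvr2a, which serves activins and several BMPs, was at 12.6 and 15.4 FPKM, a log2 difference of 0.29 (interval 0.19 to 0.39, exact binomial test, Benjamini-Hochberg adjusted p = 2.14e-07). Of its exonic bases, 7.84% are shared with Orc4 on the opposite strand. Acvr2b was at 10.1 and 10.7 FPKM (interval -0.13 to 0.31) and Tgfbr2, the TGF-beta type II receptor, at 1.44 and 1.47 FPKM, or 0.02 as log2 change. Tgfbr3, the co-receptor betaglycan, was at 0.217 and 0.107 FPKM from 24 and 16 fragments, a log2 fragment ratio of -1.02 (interval -2.03 to -0.05, exact Benjamini-Hochberg adjusted p = 0.132). Type I and type II receptors together summed to 131 FPKM in Rcor2fl/fl and 134 FPKM in Rcor2cko, 4.55 and 5.73 times the summed level of the 27 ligand genes.

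**Figure D2:**
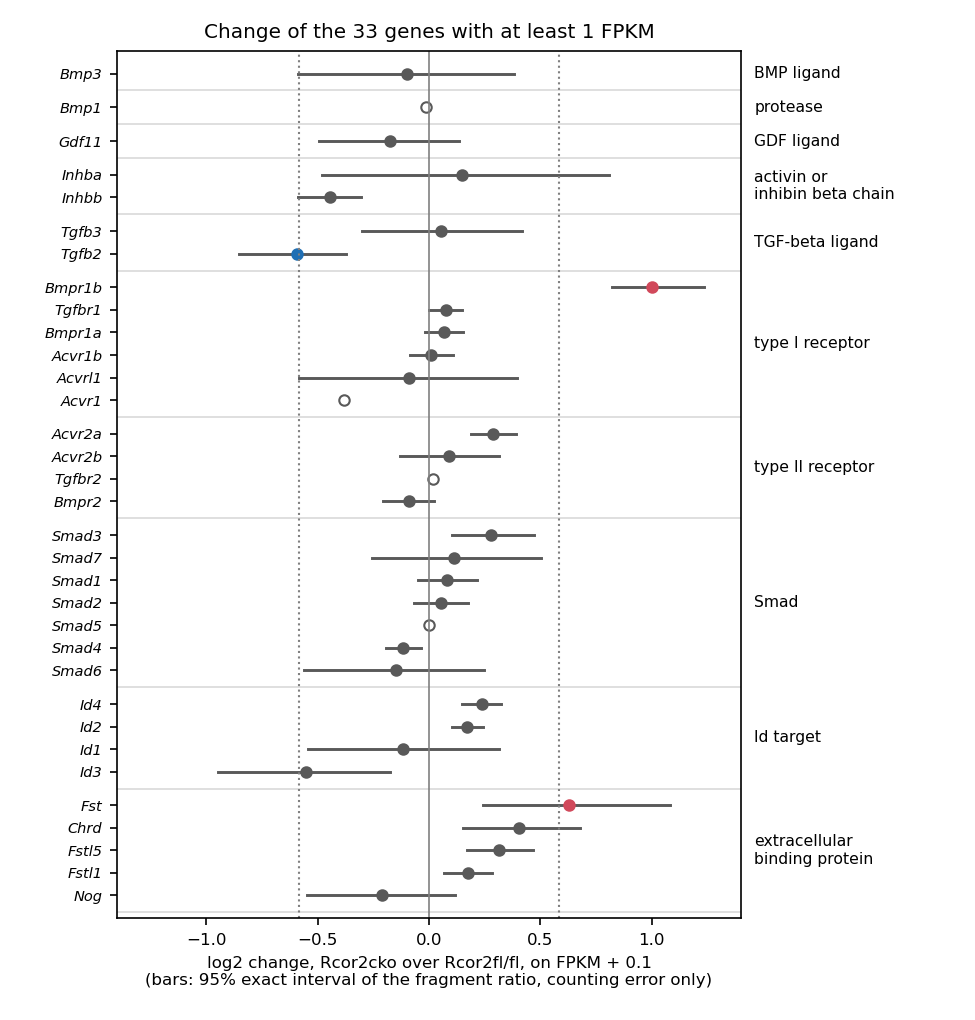
Log2 change on (FPKM + 0.1) from Rcor2fl/fl to Rcor2cko of the 33 members with at least 1 FPKM, grouped by role, with 95% exact intervals of the fragment ratio as bars (counting error only), dotted lines at 1.5-fold, and open circles where fragments were not recovered. Bmpr1b and Fst lie past the upper line and Tgfb2 past the lower one, and the interval of Bmpr1b, from 0.82 to 1.23, is the only one wholly outside the lines.

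The Smads, which carry the signal to the nucleus, differed little. All 7 that reached 1 FPKM differed by less than 1.5-fold, with log2 changes between -0.15 and 0.28. Smad4, the common partner, was at 38.7 and 35.7 FPKM and Smad5, of the BMP branch, at 34.1 FPKM in each library, and their intervals overlapped in both. Smad2 and Smad1 followed at 21.6 and 14.5 FPKM in Rcor2fl/fl and at 22.4 and 15.4 FPKM in Rcor2cko. The order of the 8 Smads was the same in both libraries.

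Within the BMP branch, Smad5 supplied 70.1% of the summed level in Rcor2fl/fl and 68.8% in Rcor2cko, and Smad9 was at 0.0410 and 0.0608 FPKM, from 4 and 8 fragments. Within the TGF-beta branch, Smad2 supplied 83.8% and 81.5%. Smad3 was at 4.17 and 5.09 FPKM, a log2 difference of 0.28 (interval 0.10 to 0.47, exact binomial test, Benjamini-Hochberg adjusted p = 0.0136). Smad4 differed in the other direction, by -0.12 with an interval from -0.20 to -0.04 (exact, Benjamini-Hochberg adjusted p = 0.0254). With median scaling its log2 change was -0.08, and the fragment test was not run with that scaling. The inhibitory Smads, which are induced by the pathway and restrain it, were at 1.83 and 1.64 FPKM for Smad6 (interval -0.56 to 0.25) and at 1.25 and 1.36 FPKM for Smad7 (interval -0.25 to 0.50).

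The 4 Id genes, which encode helix-loop-helix proteins without a DNA-binding domain that hold back neuronal differentiation factors, fell into an abundant and a less abundant pair. Id2 was at 136 FPKM in Rcor2fl/fl and 153 FPKM in Rcor2cko, and Id4 at 64.4 and 75.9 FPKM. Id3 was at 8.46 and 5.74 FPKM, and Id1 at 6.29 and 5.80 FPKM. None of the 4 was past 1.5-fold. Id2 supplied 63.2% and Id4 29.99% of the summed level of the family in Rcor2fl/fl, and 63.6% and 31.6% in Rcor2cko.

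The abundant pair was slightly higher in Rcor2cko. Id2 differed by a log2 change of 0.17 (2756 and 4173 fragments, interval 0.10 to 0.24) and Id4 by 0.24 (1780 and 2822 fragments, interval 0.15 to 0.32). Both passed the fragment test, with exact Benjamini-Hochberg adjusted p = 1.77e-05 and 1.14e-06. An antisense gene, A330033J07Rik, shares 10.3% of the exonic bases of Id4. Id3 was lower, 1.47-fold on (FPKM + 0.1), a log2 change of -0.55 just short of the threshold. The transcripts of Id3 and Id1 are under 1000 nt, and fragments were recovered with a minimum of 600 nt, chosen after seeing the data. Id3 then had 121 and 110 fragments (interval -0.95 to -0.18, exact Benjamini-Hochberg adjusted p = 0.0211 over 12943 genes), and Id1 had 85 and 105 (interval -0.54 to 0.31, exact adjusted p = 0.835). In Rcor2fl/fl Id3 was above Id1 and in Rcor2cko Id1 was above Id3, with overlapping FPKM intervals in each case. Endothelial markers, listed because Id1 and Id3 are also known from vessels, summed to 34.2 and 36.5 FPKM. Of the 8, 7 were higher and 1 was lower in Rcor2cko, and none was past 1.5-fold. The part of vessels in the values of Id1 and Id3 was not tested.

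Upstream bases of the Id genes in the RefSeq table are shown because these genes are textbook direct targets of BMP-activated Smads. They lie at chr12:25780958-25781207 on the minus strand for Id2, chr4:135699487-135699736 on the plus strand for Id3 and chr13:48356235-48356484 on the plus strand for Id4, all on NCBIM37. The start used for Id4 lies 311 bases upstream of that of the counted transcript. For Id3 the start is that of the counted transcript, but the window lies inside the annotated gene, which starts at base 135699412. GGCGCC was found in Id2 and Id4, and CAGAC or its reverse complement in Id3. The windows of Id2, Id3 and Id4 hold 62.8%, 62.8% and 75.6% G or C, against the median of 52.4% over all promoters. No promoter was available for Id1, and a link of these elements with level was not tested. Capitals mark these matches.
Id2: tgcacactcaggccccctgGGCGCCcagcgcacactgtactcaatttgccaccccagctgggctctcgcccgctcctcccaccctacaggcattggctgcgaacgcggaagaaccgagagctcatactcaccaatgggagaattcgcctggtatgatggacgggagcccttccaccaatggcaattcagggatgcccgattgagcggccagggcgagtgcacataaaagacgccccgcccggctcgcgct
Id3: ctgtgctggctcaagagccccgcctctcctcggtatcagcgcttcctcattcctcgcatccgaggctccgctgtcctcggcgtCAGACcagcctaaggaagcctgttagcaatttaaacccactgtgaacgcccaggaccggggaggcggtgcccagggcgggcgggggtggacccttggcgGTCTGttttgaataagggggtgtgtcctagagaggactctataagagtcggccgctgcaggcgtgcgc
Id4: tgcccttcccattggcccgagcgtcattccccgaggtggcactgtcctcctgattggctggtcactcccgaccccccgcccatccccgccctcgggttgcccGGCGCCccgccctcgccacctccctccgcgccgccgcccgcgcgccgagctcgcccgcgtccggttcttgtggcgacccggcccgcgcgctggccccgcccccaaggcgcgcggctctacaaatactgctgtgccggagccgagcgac

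The extracellular binding proteins include antagonists that keep ligands from their receptors, and follistatin-related genes. Of 8 in the fragment test, 5 were higher (Chrd, Fst, Fstl1, Fstl4 and Fstl5), against 8.53% of all genes tested. Of the 11 genes, 5 reached 1 FPKM. Among these, 1 was past 1.5-fold upwards, against 3.79% of all genes that passed the filter. In the fragment test 4 of the 5 were higher at an adjusted p under 0.05, against 10.4% of genes at that level. Fst, which encodes follistatin, an activin antagonist, rose from 1.78 to 2.81 FPKM (72 and 153 fragments). The change was 1.55-fold, a log2 difference of 0.63 (interval 0.24 to 1.08, exact binomial test, Benjamini-Hochberg adjusted p = 0.0085), and the deposited FPKM intervals overlapped. With a pseudocount of 1 FPKM it was 0.45, short of the threshold. Fst lies at bases 115242470 to 115249159 of chromosome 13 in mm9, minus strand, with at most 6 exons in any annotated transcript.

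Chrd, which encodes chordin, a BMP antagonist, was at 3.26 and 4.34 FPKM, a log2 difference of 0.40 (interval 0.15 to 0.68, exact, Benjamini-Hochberg adjusted p = 0.0104). Nog, which encodes noggin, another BMP antagonist, went the other way, at 4.39 and 3.79 FPKM with an interval from -0.55 to 0.12 that included 0. The order of Nog and Chrd was thereby reversed between the libraries, with overlapping intervals in each. The follistatin-related genes Fstl1 and Fstl5 were at 17.6 and 19.9 FPKM and at 7.06 and 8.81 FPKM, with log2 changes of 0.17 (interval 0.07 to 0.28) and 0.31 (interval 0.17 to 0.47). Fstl1 was the most abundant gene of the group in both libraries.

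Below 1 FPKM, Grem1, which encodes the BMP antagonist gremlin, had 8 and 29 fragments, at 0.294 and 0.791 FPKM, for a log2 fragment ratio of 1.43 (interval 0.26 to 2.77, exact Benjamini-Hochberg adjusted p = 0.0555). Fstl4, a further follistatin-related gene, had 2 fragments in Rcor2fl/fl and 41 in Rcor2cko, at 0.0363 and 0.552 FPKM. The log2 fragment ratio was 3.93 with an interval from 1.98 to 7.02 (exact, Benjamini-Hochberg adjusted p = 5.92e-07). Chrdl1, an X-linked chordin relative, was at 0.295 and 0.488 FPKM.

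Markers of ventral telencephalon, choroid plexus and microglia moved in the same direction as Bmpr1b, Fst, Gdf10, Grem1 and Fstl4. Of the 10 ventral markers 9 were past 1.5-fold upwards, with a summed level of 27.6 and 68.7 FPKM, and Gsx2, Isl1 and Six3 were listed at 0 in Rcor2fl/fl. The 7 choroid plexus markers were all higher, from a summed 1.04 to 62.9 FPKM, or from 1.04 to 5.12 FPKM without Ttr. Ttr and Kl were listed at 0 in Rcor2fl/fl. Microglial markers summed to 9.48 and 14.6 FPKM, with 5 of 5 higher and 3 past 1.5-fold, and markers of meninges and pericytes to 17.0 and 22.2 FPKM, with none of the 4 that reached 1 FPKM past it. Blood markers summed to 89.4 and 80.6 FPKM. Their part in the changes of the pathway genes was not tested.

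**Figure D3:**
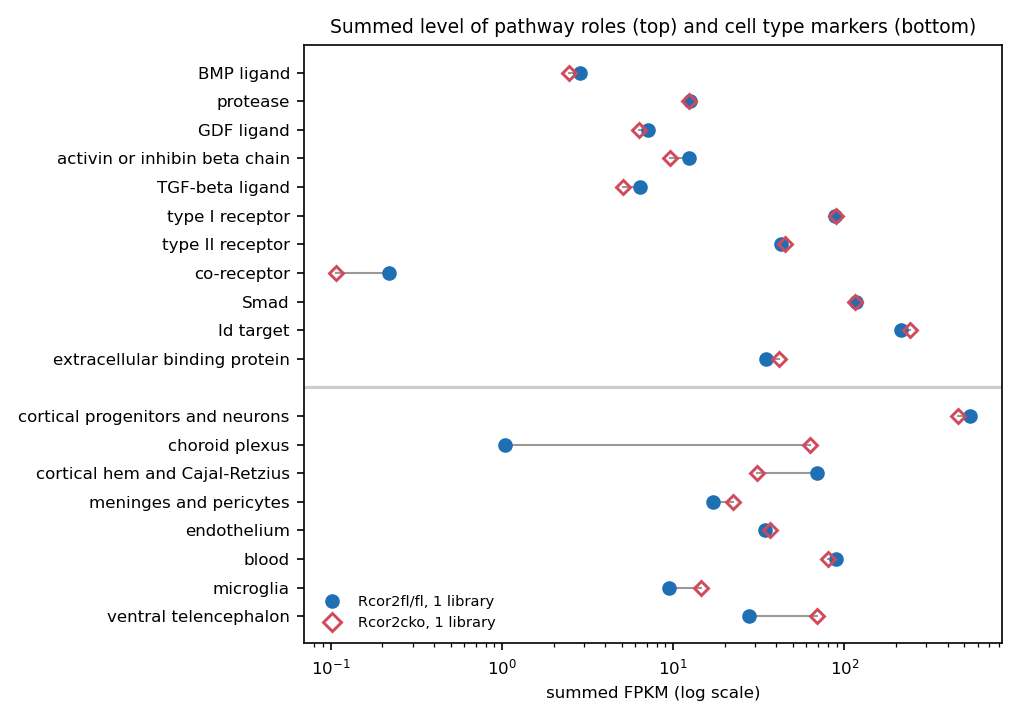
Summed FPKM on a log axis for each role of the pathway (top) and each list of cell type markers (bottom), with the Rcor2fl/fl library as filled circles and the Rcor2cko library as open diamonds. Type I receptor, type II receptor and Smad sums nearly coincide, while the co-receptor value goes from 0.217 to 0.107 FPKM. The choroid plexus sum goes from 1.04 to 62.9 FPKM, the ventral sum from 27.6 to 68.7 FPKM and the hem and Cajal-Retzius sum from 69.2 to 30.7 FPKM.

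Across the 30 members under 1 FPKM, 14 reached 0.2 FPKM in at least 1 library. Of these 14, 3 were past 1.5-fold upwards (Gdf10, Grem1 and Fstl4) and 3 downwards (Gdf9, Gdf5 and Tgfbr3). In the same range of levels, 22.3% of 2020 genes were past it upwards and 12.7% downwards. Of the 16 members under 0.2 FPKM in both libraries, 8 were listed at 0 in both: Bmp8a, Bmp10, Gdf1, Gdf2, Gdf3, Inhbc, Chrdl2 and Fstl3. For 7 of them, a count of 0 allows up to 0.057 to 0.142 FPKM in Rcor2fl/fl and 0.0422 to 0.105 FPKM in Rcor2cko, taken as 3 fragments. Gdf1 shares all of its exonic bases with Lass1 on the same strand and had too little data for an estimate, while Lass1 was at 7.64 and 5.68 FPKM, so that its 0 is uncertain. Bmp15, Gdf6, Gdf7 and Inhbe were listed at 0 in Rcor2fl/fl and had between 1 and 3 fragments in Rcor2cko, among them Gdf7, a ligand of the dorsal midline, with 3.

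Bmp1 shares the name of the family but encodes a protease that cleaves procollagens and chordin. It was at 12.5 and 12.4 FPKM, or -0.01 as log2 change with the rows summed. With the highest row it was 0.32, which sets 1 Rcor2fl/fl transcript against the whole gene in Rcor2cko. In Rcor2fl/fl 79.1% of the Bmp1 level came from the coding transcript of 3759 nt and 20.9% from a non-coding one.

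Several members are neighbours in the genome. Of the 63, all were found in the GENCODE vM1 annotation, on 18 chromosomes, and 10 pairs lay within 500 kb of each other. Acvr1c and Acvr1 lie 30.75 kb apart on chromosome 2, with log2 changes of -0.37 and -0.38 when transcript rows were summed. Both genes have several transcript rows in Rcor2fl/fl and 1 row in Rcor2cko, but for Acvr1c 1 of these rows holds 99.9985% of the Rcor2fl/fl level. Acvr1c was under 1 FPKM in both libraries, and its deposited FPKM intervals overlapped. Gdf10 and Gdf2 lie 4.524 kb apart on chromosome 14, where Gdf10 had a log2 change of 1.24 and Gdf2 was listed at 0 in both libraries. Fstl4 and Gdf9, 242.5 kb apart on chromosome 11 and both under 1 FPKM, had log2 changes of 2.26 and -0.87. Gdf9 did not pass the fragment test, and Fstl4 had 2 fragments in Rcor2fl/fl. Smad3 and Smad6, 195.2 kb apart on chromosome 9, had log2 changes of 0.28 and -0.15.

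Other genes of the pathway were taken from a list outside the symbol rule. Of these 52 ligands, co-receptors, extracellular and intracellular regulators and targets, 31 reached 1 FPKM. None was past 1.5-fold upwards and 1 was past it downwards, with a median log2 change of -0.04. In the fragment test, 2 of 22 such genes with at least 1 FPKM were higher and 7 lower, against 10.4% and 16.4% of all genes. Crim1, a membrane protein that binds BMPs, fell from 5.26 to 3.23 FPKM (575 and 477 fragments), or -0.69 as log2 change. Inha, the inhibin alpha chain that pairs with the product of Inhbb, was at 7.65 and 5.91 FPKM, or -0.37 as log2 change. Twsg1 and Ltbp3, the most abundant extracellular regulators of the list, were at 24.2 and 22.2 FPKM and at 13.9 and 9.46 FPKM. The co-receptors Rgma and Rgmb were at 17.0 and 17.8 FPKM and at 13.0 and 13.1 FPKM, and Fkbp1a and Strap, the most abundant intracellular regulators, at 88.9 and 80.7 FPKM and at 48.5 and 47.1 FPKM. Amh was at 0.253 and 0.214 FPKM. Of the listed targets, Junb was at 2.01 and 1.34 FPKM and Ctgf at 1.06 and 0.802 FPKM, while the BMP targets Msx1 and Msx2, named after their values were seen, had at most 4 fragments in either library.

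**Figure D4:**
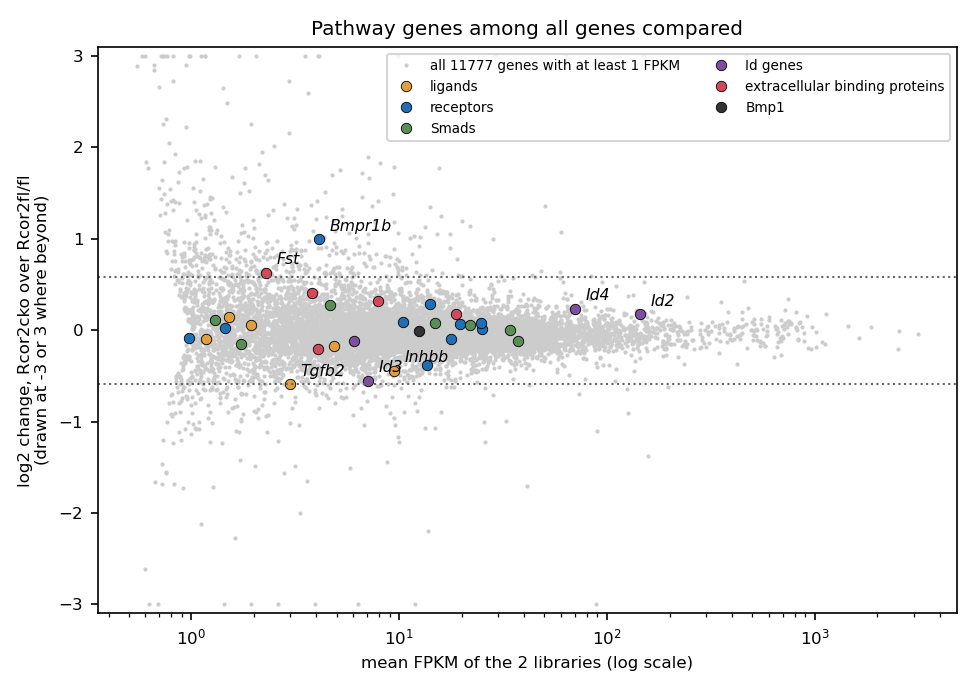
Log2 change on (FPKM + 0.1) from Rcor2fl/fl to Rcor2cko against the mean FPKM of both libraries (log axis) for all 11777 genes with at least 1 FPKM (grey) and the 33 members among them (coloured by role), with dotted lines at 1.5-fold and values beyond 3 drawn at the edge. Most members lie in the grey band between the lines, and Bmpr1b, at 1.0, stands farthest from 0 among them.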

How the data were processed

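RNA from the VZ–SVZ of E13.5 cortex was sequenced as 1 library per genotype after a stranded mRNA kit. Per the labels, the authors used TopHat 1.3.3 and Cufflinks 1.2.0 on mm9, and the paper's methods name another TopHat version. The deposited values are FPKM with 95% intervals, 27641 rows per RefSeq transcript for Rcor2fl/fl and 21896 rows per gene for Rcor2cko. Transcript rows were summed to the same 21896 genes, a step that sets the libraries apart for genes with several transcripts. Strand use in counting is not given in the sources used here.

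Log2 ratios used FPKM + 0.1, a minimum of 1 FPKM in at least 1 library and a fold of 1.5. Where a gene had 1 transcript of 1000 nt or longer, fragments were recovered from the FPKM steps (14350 genes). Of values of up to 100 fragments, 99.28% of 4015 and 99.42% of 3959 lay within 0.1 of a whole number. Exact binomial tests of these fragments, with Benjamini-Hochberg adjustment, used scipy 1.17.1 under Python 3.11.15, and the scripts were tested on simulated data. PCR duplicates are not marked, so that intervals and floors cover counting error only. Positions are from GENCODE vM1 on NCBIM37, and promoters from RefSeq (table of GRCm38.p6), which held 43 of the 63 members.

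Members and lists were chosen with earlier results of these data known. Members with at least 1 FPKM were named, with those under it that were past 1.5-fold and reached 0.2 FPKM, and, of other pathway genes, those past 1.5-fold and the 2 highest per role. The values of 1 member are not reported here, although it is included in the counts and sums.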

Additional observations from a re-analysis of the deposited data

How the results depend on the processing

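Each genotype is 1 library, so none of these differences has an estimate of biological spread, and genotype cannot be told apart from library or embryo sex. No paired analysis was possible because each genotype had 1 library. Of 15 other settings, those that moved the count of members past 1.5-fold upwards from 2 were a pseudocount of 1 (1), no filter (6), a minimum of 5 FPKM (1), a fold above 2 (0) and non-overlapping deposited FPKM intervals (1). The count downwards went from 1 to 0 with a pseudocount of 1, a minimum of 5 FPKM, median, upper-quartile and total scaling, a fold above 2 and non-overlapping intervals, and to 5 with no filter. Tgfb2 was at -0.56 to -0.57 under the 3 scalings and -0.46 with a pseudocount of 1. Fst, Gdf5, Gdf9, Gdf10, Grem1, Fstl4 and Tgfbr3 were also short of 1.5-fold with a pseudocount of 1, and Bmpr1b reached 0.81 there. The other 31 of 39 named members kept their side of the 1.5-fold threshold under each alternative run for single genes. Bmp1 alone changed sign with scaling. Taking only the top transcript row put Bmp1 and Acvr1 at 0.32 and 0.24, from -0.01 and -0.38. Only Rcor2fl/fl has transcript rows, so this setting can only raise log2 changes or leave them, and does not test their direction. The median log2 change of members ranged from 0.00 to 0.09. With the highest row per gene in place of the sum, 1214 of all genes rather than 446 were past 1.5-fold upwards, and the members' counts stayed at 2 and 1. Transcripts from 600 nt, an alternative added after seeing the data, gave 11 members higher and 4 lower in the fragment test in place of 11 and 3. The fragment test was not rerun under the 3 scalings, so its counts rest on the fitted scaling totals. Below 1 FPKM, depth limits what can be seen.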
